A study of Mus musculus with 57 samples.

Results

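NANOG binding before and shortly after induction of GATA6 was compared in 4 CUT&RUN peak lists, 2 at 0 h and 2 at 2 h, out of 57 samples in the series, 30 of which have peak lists. In CUT&RUN a nuclease is brought to a chromatin protein by an antibody, and the DNA it cuts free is sequenced, so that peaks of fragments mark bound sites. A region was counted for a time point when both of its lists held a peak there, which gave 7515 NANOG regions at 0 h and 19090 at 2 h. Of the 2 h regions, 9828 had no peak in either 0 h list (gained), 5701 overlapped a 0 h region (kept) and 3561 overlapped a peak of 1 0 h list only. Of the 0 h regions, 537 had no peak in either 2 h list (lost), 5695 were kept and 1283 overlapped a peak of 1 2 h list only.

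The cells were KH2 mouse embryonic stem (ES) cells, with the strain given as C57BL/6. They carry a TRE:GATA6-DsRed2 transgene, a single doxycycline-inducible copy of tagged GATA6. Per the study's methods, cells at 0 h had received no doxycycline and were taken from medium with LIF and 2 kinase inhibitors (2i), whereas cells at 2 h had been moved to medium with serum and LIF together with doxycycline. Induction of GATA6 and the change of medium therefore cannot be told apart in any difference between 0 h and 2 h. All samples came from 1 engineered line, and nothing in the labels says that replicates were separate cultures.

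NANOG is a homeodomain transcription factor that keeps ES cells and the epiblast (Epi) of the blastocyst pluripotent. In ES cells it shares many enhancers with SOX2 and OCT4, which together recognise a composite DNA element. GATA6 drives the alternative fate, the primitive endoderm (PrE), and in the inner cell mass both proteins are present before the fates separate.

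The 0 h lists held 10693 peaks in replicate 1 and 16180 in replicate 2, and the 2 h lists 52285 and 26742. The background coverage that the peak caller used, which grows with sequencing depth, was 0.902 and 1.17 fragments per base at 0 h and 1.31 and 1.22 at 2 h, which makes the 2 h libraries somewhat deeper. The part of this in the longer 2 h lists was not tested, and the main counts and shares are therefore also given at equal list length, with the 10693 peaks of lowest q-value from every list. GATA6 lists, which check the induction, held 86 and 882 peaks at 0 h and 79358 and 62683 at 2 h. Their background coverage was 0.287 and 0.315 fragments per base at 0 h, a rough estimate, and 1.34 and 1.11 at 2 h. The GATA6 0 h libraries were thus shallower, and the part of this in the counts was not tested.

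At equal list length the NANOG lists gave 6592 regions at 0 h and 7415 at 2 h, and the balance between gain and loss changed. Gained regions numbered 2744 instead of 9828 and lost regions 1884 instead of 537, so that 1.46 regions were gained for each lost one instead of 18.3. Kept regions numbered 3502. Single libraries moved the counts as well, since a region then needs a peak in 1 list only: without 2 h replicate 1 or 2 the gained regions numbered 17000 and 39345, without 0 h replicate 1 the kept regions numbered 8579, and without 0 h replicate 1, 0 h replicate 2 or 2 h replicate 1 the lost regions numbered 4047, 2324 and 1675. Of the 1884 regions lost at equal length, 363 (19.3%) had no peak in either full 2 h list, 817 had a peak in 1 of them and 704 in both, so most still had a 2 h peak lower in the order. The same count for gained regions is not comparable, since the full list of 0 h replicate 1 is no longer than the equal length.

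**Figure D1:**
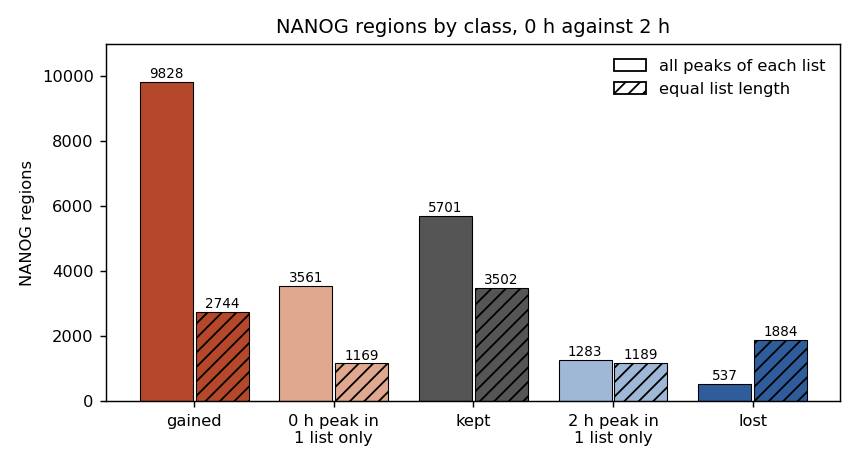
Number of NANOG regions (y axis) in each class, from all peaks of each list (plain bars) and from the 10693 peaks of lowest q-value of each list (hatched bars). With lists of equal length there were 2744 instead of 9828 gained and 1884 instead of 537 lost regions.

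Gained regions were weaker than kept regions, but some were among the strongest. In the 2 h lists the median fold over background, the peak caller's measure of strength, was 7.24 (replicate 1) and 5.46 (replicate 2) at gained regions and 11.8 and 8.10 at kept regions. Lost regions had median folds of 5.26 and 5.72 at 0 h, against 6.83 and 8.33 at kept regions. Of the 1000 strongest 2 h regions 112 were gained and 783 kept, and of the 100 strongest 3 were gained and 90 kept. All of the 100 strongest 0 h regions and 974 of the strongest 1000 were kept, and 1 of these 1000 was lost. Median widths were 405 bp for gained, 587 bp for kept and 369 bp for lost regions. Among gained regions 5.14% rested on a weaker peak with a −log10 q under 2, not far above the lists' threshold, against 0.930% of kept and 12.3% of lost regions.

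The strongest region of each class and 2 further gained regions illustrate what the classes looked like in sequence. Sequences are the plus strand of GRCm38, 100 bp on either side of the NANOG summit unless stated, and capitals mark matches, on either strand, to the motifs counted below. The last pair was chosen after the values were seen, to show AP-1 matches and the promoter of Nanog itself, for which the bases just before the transcription start site are given.
Gained, chr8:8723827-8724027: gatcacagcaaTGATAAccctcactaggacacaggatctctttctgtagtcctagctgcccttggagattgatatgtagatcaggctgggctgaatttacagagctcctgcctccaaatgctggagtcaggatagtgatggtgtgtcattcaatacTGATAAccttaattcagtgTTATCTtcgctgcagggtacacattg
Kept, chr11:88202158-88202358: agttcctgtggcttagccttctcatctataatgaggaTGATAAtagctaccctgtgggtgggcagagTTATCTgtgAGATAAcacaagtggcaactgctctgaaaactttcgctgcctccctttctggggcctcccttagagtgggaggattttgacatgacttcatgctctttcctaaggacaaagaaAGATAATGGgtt
Lost, chr6:4118653-4118853: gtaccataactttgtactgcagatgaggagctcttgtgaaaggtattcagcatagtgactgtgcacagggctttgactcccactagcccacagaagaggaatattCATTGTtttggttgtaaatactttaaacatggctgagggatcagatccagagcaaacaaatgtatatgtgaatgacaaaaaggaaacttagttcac
Gained with AP-1, chr14:65900729-65900929: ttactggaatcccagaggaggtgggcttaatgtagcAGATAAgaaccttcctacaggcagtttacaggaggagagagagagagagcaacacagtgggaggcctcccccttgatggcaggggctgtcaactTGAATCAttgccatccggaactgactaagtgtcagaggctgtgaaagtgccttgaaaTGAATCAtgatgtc
Nanog promoter (gained), chr6:122707288-122707488: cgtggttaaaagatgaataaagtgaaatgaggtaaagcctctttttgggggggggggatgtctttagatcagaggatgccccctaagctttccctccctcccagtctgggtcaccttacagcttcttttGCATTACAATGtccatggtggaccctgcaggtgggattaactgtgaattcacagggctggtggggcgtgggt

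The strongest gained region was intergenic, 33406 bp upstream of Arglu1, the nearest protein-coding gene, and its sequence held 3 GATA matches. NANOG folds were 45.1 and 29.4 at 2 h, with no NANOG peak in either 0 h list. GATA6 folds at 2 h were 73.5 and 71.1, and a SOX2 peak was present in 1 of the 2 lists at 0 h (fold 3.47) and in both at 2 h (24.2 and 49.1). NANOG peaks were still called there at 4 h (24.5 and 16.4) and 8 h (10.5 and 5.32), as were SOX17 peaks at 24 h (48.98 and 59.4). NANOG was thus called in every later NANOG list at a site where it had no peak at 0 h. The second strongest gained region, 101961 bp upstream of Med13l, had NANOG folds of 37.2 and 29.7 and 16 GATA matches. Its GATA6 folds at 2 h were 143.6 and 120.3, and it had no SOX17 or GATA4 peak at 24 h. The third strongest gained region, 132080 bp upstream of Atxn1, had NANOG folds of 38.9 and 20.7. The region printed for its AP-1 matches, the strongest such gained region that was intergenic, lay 53106 bp downstream of Scara3 and had NANOG folds of 30.5 and 17.3, GATA6 folds of 50.1 and 36.9 and no SOX2 peak at 0 h.

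The 3 strongest kept regions were chosen by their mean 2 h fold, which favours higher values at 2 h, and their uncentred folds are given as a description. The first lay 2130 bp upstream of Mrps23, a gene of the mitochondrial ribosome, and its sequence held 4 GATA matches, the last of which overlaps a NANOG core. NANOG folds there were 25.3 and 33.8 at 0 h, against 74.8 and 56.8 at 2 h. The second was intronic in Rbpj, the DNA-binding effector of Notch signalling, with NANOG folds of 34.2 and 32.7 at 0 h and 76.5 and 47.7 at 2 h. The third, in an intron of Car8, had folds of 26.8 and 36.9 at 0 h and of 61.8 and 40.9 at 2 h.

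The strongest lost region, intergenic and 31781 bp upstream of Bet1, had NANOG folds of 13.1 and 14.3 at 0 h and no NANOG peak in any list at 2, 4 or 8 h. It had no GATA match and no GATA6 peak at 2 h, but held a SOX core, and SOX2 peaks were called at 0 h (9.18 and 15.9) and at 2 h (5.53 and 6.50). The next lost regions lay in an intron of 4932411K12Rik, with Pik3r1 as the nearest protein-coding start, and in an exon of Kcnn3, with Adar as the nearest. They had NANOG folds of 12.995 and 10.2, and of 12.1 and 11.1, at 0 h. Neither had a SOX2 peak at 2 h, although both had one in at least 1 list at 0 h. The Kcnn3 region held 1 GATA match and had, in replicate 1 only, a GATA6 peak at 2 h (6.41) and a NANOG peak at 4 h (4.83).

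SOX2 binding before induction differed strongly between gained and kept regions. SOX2 0 h peaks covered 24.4% and 22.5% of gained regions (replicates 1 and 2), 89.0% and 89.7% of kept regions and 62.4% and 63.5% of lost regions. The mean difference between gained and kept regions was -65.9 percentage points ± 1.86 (SD, n = 2 lists), far beyond the spread between the 2 SOX2 lists. This SD does not cover the NANOG lists, and with 1 of them left out the difference ran from -71.7 to -53.3. It was seen at every strength: when regions were divided into 5 equal groups by mean 2 h fold, a division made after the data were seen, it ranged from -56.8 in the weakest to -76.1 in the strongest group. At equal list length it was -68.6. Gained sites were thus mostly sites without SOX2 before induction, while sites that lost NANOG had usually held SOX2.

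At 2 h SOX2 itself was found at many gained NANOG regions. SOX2 2 h peaks covered 51.3% and 73.7% of gained, 80.7% and 92.8% of kept and 17.7% and 34.3% of lost regions, from SOX2 2 h lists of 24073 and 52574 peaks. Background coverage of the SOX2 libraries was 0.416 and 0.575 fragments per base at 0 h and 0.448 and 0.692 at 2 h, and its part in these shares was not tested. Of the gained regions, 2900 (29.5%) had SOX2 in neither list at 0 h and in both at 2 h, against 146 (2.56%) of the kept regions. These shares have unlike bases, since 6782 gained but only 335 kept regions had SOX2 in neither 0 h list. The contrast between the 2 classes is therefore not read as more frequent new SOX2 at gained regions. The reverse, SOX2 in both 0 h lists and in neither 2 h list, was found at 124 lost regions (23.1%), at 141 kept (2.47%) and at 136 gained regions (1.38%). Peaks of NANOG and SOX2 thus appeared together at 2900 gained regions and disappeared together at 124 lost regions, a minority of each class.

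With all GATA6 peaks counted, from lists of 79358 and 62683, most NANOG regions of 2 h overlapped one, gained or kept. GATA6 2 h peaks covered 94.1% and 88.1% of gained regions and 95.04% and 90.1% of kept regions, and 37.1% and 25.7% of lost regions. At equal length of the NANOG lists the share of lost regions was 65.7% and 49.9%. With only the 10000 strongest peaks of each GATA6 list the mean share was 40.8% of gained and 46.7% of kept regions. The difference between gained and kept regions was -1.49 percentage points ± 0.794 (SD, n = 2 lists) and took the other sign at equal list length (1.48) and as a mean over the 5 groups of like 2 h fold (5.14), so no direction is given. It also rested on both 2 h libraries: with NANOG 2 h replicate 2 alone it was -24.5 and with replicate 1 alone -31.5, where the mean GATA6 share of gained regions was 66.7% and 55.1%. The median GATA6 fold at regions with a peak was 11.1 and 9.74 in gained, 12.4 and 10.7 in kept and 4.94 and 5.13 in lost regions. GATA6 0 h peaks, from the shallower libraries with 86 and 882 peaks, covered at most 0.439% of any of these 3 classes in either list. Where gained regions held a GATA6 summit, it lay a median of 66 and 64 bp from the NANOG summit, and the values at kept regions were 71 and 65 bp.

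**Figure D2:**
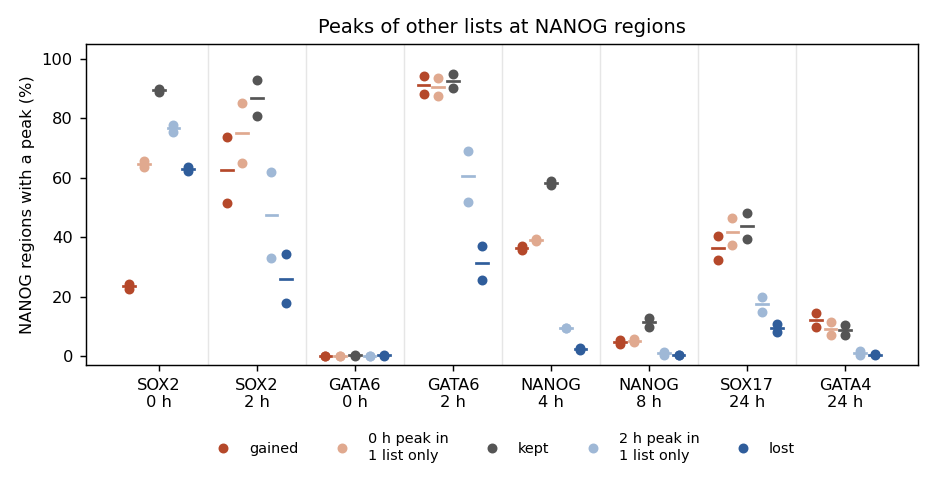
Share of NANOG regions of each class (y axis, percent) that overlapped a peak of each other list (x axis); points are the 2 lists of a group and short lines their means. SOX2 at 0 h separated gained (24.4% and 22.5%) from kept regions (89.0% and 89.7%), while GATA6 at 2 h covered both classes about equally.

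Kept regions more often than gained ones still had NANOG at 4 h and 8 h. The 4 h lists held 14911 and 14528 peaks, at a background coverage of 0.865 and 0.935 fragments per base, and the 8 h lists 5510 and 2255 peaks. The part of list length, depth and the lower 2 h strength of gained regions was not tested. NANOG 4 h peaks covered 37.0% and 35.7% of gained, 59.0% and 57.5% of kept and 2.05% and 2.79% of lost regions, and NANOG 8 h peaks covered 5.50% and 3.95%, 12.9% and 9.93%, and 0.372% in both lists. At equal length of the 0 h and 2 h lists the 4 h shares were 67.6% and 64.5% for gained and 76.5% and 74.3% for kept regions, a smaller distance, and 10.99% and 10.7% for lost regions. Of the PrE factors mapped at 24 h, SOX17 covered 32.2% and 40.3% of gained, 39.3% and 48.0% of kept and 8.01% and 10.8% of lost regions, and GATA4 14.6% and 9.78%, 10.6% and 7.02%, and 0.559% and 0.186%. The SOX17 lists held 27328 and 41979 peaks and the GATA4 lists 8427 and 4006, so the 2 factors are not compared.

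The letters around the summits differed between classes, most clearly for GATA, AP-1 and the SOX-OCT composite. Motifs were searched on both strands as exact letters within 100 bp of the summit, and windows of the same length placed every 100 kb along the genome served as the background. A GATA motif was counted where the letters read AGATAA or its form AGATAG, or TGATAA or its form TGATAG, some of which can overlap the NANOG core. It was found in 59.4% of gained regions (exact 95% interval 58.4 to 60.3), 38.2% of kept (37.0 to 39.5) and 24.0% of lost regions (20.5 to 27.9), against 38.1% of the genome windows. The genome windows were not matched for base composition: their median GC content was 41.8%, against 46.3%, 44.8% and 43.3% in gained, kept and lost regions. At equal list length the shares were 72.5%, 41.8% and 24.8%. These intervals cover counting error only.

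AP-1 (TGANTCA, the element of the FOS and JUN proteins, which respond to serum and growth factors) was found in 25.2% of gained (24.4 to 26.1), 11.1% of kept (10.3 to 11.9) and 5.21% of lost regions (3.49 to 7.45), against 5.83% of genome windows. At equal list length the shares were 29.4%, 12.6% and 5.10%. AP-1 matches were found in 23.1% of gained regions with a GATA match and in 28.4% without one. Gained regions that had GATA6 peaks in neither list, 440 in all, held AP-1 in 21.1% and GATA in 33.0% of cases, against 25.7% and 63.4% of the 8517 with GATA6 in both. The 2400 gained regions with a NANOG peak in both 4 h lists held GATA more often (79.0%) and AP-1 less often (17.4%) than the class as a whole, with intervals of 77.4 to 80.7 and 15.9 to 18.99. The part of 2 h strength in these 2 shares was not tested, and gained regions at equal list length held GATA in 72.5%.

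The SOX-OCT composite (CATTGT or CTTTGT, 1 free base, then ATGC) was rarer, least frequent in gained and most frequent in kept regions. It was found in 38 of 9828 gained regions (0.387%), 203 of 5701 kept (3.56%) and 7 of 537 lost regions (1.304%), against 0.121% of genome windows. The difference between gained and kept regions was -3.17 percentage points, and it was -3.94 at equal list length and -1.42 within 50 bp of the summit. The SOX core CATTGT, which the first form of the composite contains, was found in 17.8%, 27.8% and 28.5% of gained, kept and lost regions, against 12.3% of genome windows. The octamer ATGCAAAT was found in 4.15%, 5.46% and 5.77% (genome windows 1.83%), the ESRRB/NR5A2 core CAAGGTCA in 2.94%, 5.54% and 5.59% (1.06%), and the NANOG core TAATGG in 9.91%, 12.0% and 14.9% (9.02%). The CArG box of the serum response factor was found in 1.12%, 1.07% and 1.86%, against 1.27% of genome windows. One of the gained SOX-OCT matches was that of the Nanog promoter printed above.

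**Figure D3:**
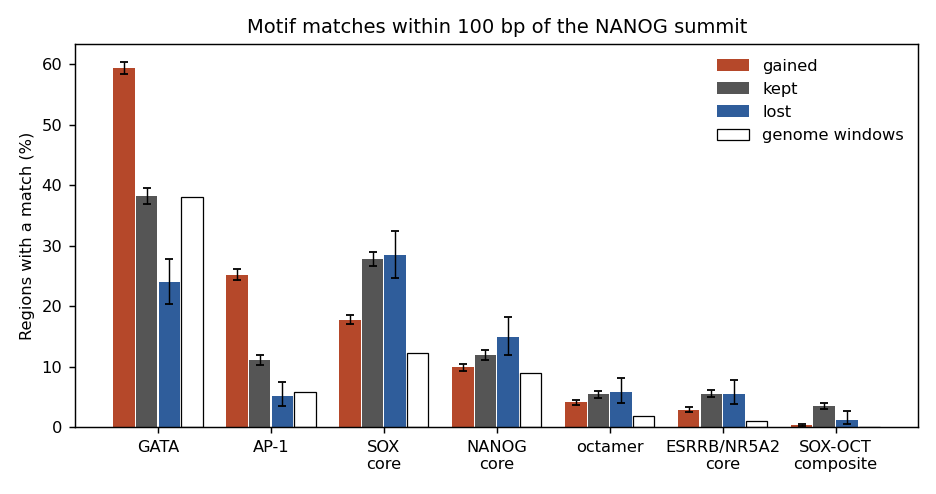
Share of gained, kept and lost NANOG regions and of genome windows (y axis, percent) with at least 1 match to each motif within 100 bp; error bars are exact 95% intervals for counting error. GATA was most frequent in gained regions (59.4%), as was AP-1 (25.2%), whereas the SOX-OCT composite was most frequent in kept regions (3.56%).

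All classes were mainly distal. The summit lay within 5 kb of a protein-coding transcription start site (TSS) in 22.7% of gained (21.9 to 23.5), 16.9% of kept (15.9 to 17.9) and 12.7% of lost regions (9.97 to 15.8), and the median distance was 23064.5, 29394 and 36127 bp. Regions of 2 h that overlapped a peak of 1 0 h list were the most proximal, with 24.9% (23.5 to 26.4) and a median of 21198 bp. Within 1 kb of a TSS lay 11.7% of gained, 6.63% of kept and 1.86% of lost regions. Introns held 45.2%, 43.6% and 51.6%, and exons 3.64%, 2.81% and 3.91%. The difference in proximal share between gained and kept regions was 5.77 percentage points, but 1.099 at equal list length, where the interval of ± 1.87 includes 0, and 3.27 without 0 h replicate 1. It was seen in the weaker regions: in the weakest of the 5 groups by 2 h fold 31.0% of gained and 22.1% of kept regions were proximal, in the strongest group 11.9% and 14.5%.

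Whole lists also had a higher proximal share at 2 h, by less at equal list length. It was 17.4% and 18.8% at 0 h and 22.9% and 22.6% at 2 h, and the 2 h lists were higher by 4.61 percentage points (exact permutation p = 0.333, the smallest that 2 lists against 2 allow). The median TSS distance was 28046 and 26554 bp at 0 h and 22541 and 23164 bp at 2 h, a difference of -4447.5 bp (exact permutation p = 0.333). The median width was 277 and 271 bp at 0 h and 242 and 266 bp at 2 h, and at equal list length 277 and 341 bp against 476 and 395 bp, so that the direction for width turned. At equal length the proximal shares were 17.4% and 17.2% at 0 h, against 18.3% and 19.4% at 2 h.

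Genes that distinguish the fates in embryos had both gained and kept regions nearby, but in different shares. The study's list of PrE genes, drawn from embryo data that are not used here, had 577 members in the annotation. Regions whose nearest protein-coding TSS lay within 50 kb and belonged to one of them numbered 386 gained and 145 kept, so that 72.7% of the regions of these 2 classes were gained (68.7 to 76.4). Its list of 220 Epi genes had 200 gained and 205 kept regions, or 49.4% gained (44.4 to 54.4), against 63.3% for all regions. At equal list length the gained shares were 58.6% (51.6 to 65.3) near PrE genes and 24.4% (18.5 to 31.0) near Epi genes, against 43.9% for all regions. Near PrE genes the gained share was thus above that of all regions in both settings, and near Epi genes below it. Of the lost regions, 9 lay near PrE and 11 near Epi genes.

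Among 10 regulators of PrE identity, 7 had at least 1 gained region, with 14 gained, 3 kept and 1 lost region in all. The gained share of 82.4% had an interval of 56.6 to 96.2, which includes the 63.3% of all regions, and at equal list length 6 were gained and 1 kept. Gata6 had 3 gained regions and none kept, and Gata4 2 gained and none kept. Pdgfra, the receptor that marks the PrE, had 4 gained and 1 kept region. Fgfr1 had 2 gained and 1 kept, and Fgfr2 1 gained and 1 kept, both receptors for the FGF signal that promotes PrE fate. Foxa2 and Sox7 had 1 gained region each, Hnf4a had 1 lost region and Sox17 none of any class. The strongest gained region of this list, 48081 bp upstream of Fgfr1, had NANOG folds of 18.2 and 6.53 at 2 h, and that of Gata4, in its intron, 5.12 and 5.404 with GATA6 folds of 46.4 and 42.9.

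The 10 genes of PrE adhesion and endocytosis had 18 gained, 3 kept and 1 lost region, but 4 genes carried all of the gained ones. The gained share was 85.7% (63.7 to 97.0), with a lower limit close to the 63.3% of all regions. At equal list length 9 were gained and 3 kept, and the interval of 42.8 to 94.5 included the 43.9% of all regions. Lamc1, a laminin chain of the basement membrane, had 8 gained and 3 kept regions, Col4a1, a collagen IV chain, 4 gained, and Lama1 and the endocytic receptor Lrp2 3 gained each. The strongest gained region of Lamc1 lay in its own intron with NANOG folds of 19.06 and 8.64 at 2 h. The only lost region of this list was intronic in Lamb1.

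Among 8 core genes of pluripotency there were 7 gained, 8 kept and no lost regions, and among 12 genes of naive pluripotency 24 gained, 24 kept and 3 lost. The gained shares of 46.7% (21.3 to 73.4) and 50.0% (35.2 to 64.8) had intervals that include the 63.3% of all regions. With lists of equal length 2 were gained and 6 kept near core genes and 11 gained and 15 kept near naive genes. Esrrb, a nuclear receptor of the naive network, had 7 gained and 4 kept regions, Klf5 4 and 3, and Tbx3 4 and 4. Nr0b1 had 3 kept and none gained. Nr5a2, Tet2 and Fgf4 each had 1 lost region, and Nr5a2 had no gained or kept region.

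Nanog itself had 1 gained and 2 kept regions. The gained one was at its promoter, 58 bp upstream of the TSS, with NANOG folds of 8.15 and 3.502 at 2 h and none at 0 h, and it held a SOX2 peak already at 0 h (7.72 and 10.9). The stronger kept region lay 4860 bp upstream, with NANOG folds of 13.9 and 23.5 at 0 h and 19.8 and 17.6 at 2 h, which overlap between the time points. Sox2 had 2 gained and 2 kept regions, Sall4 3 gained and 1 kept, and Pou5f1 1 gained, at its promoter.

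The remaining lists were small, and the intervals of their gained shares included the share of all regions. The 8 genes of FGF/ERK feedback, which ERK switches on to limit its own signal, had 12 gained, 15 kept and no lost regions, a gained share of 44.4% (25.5 to 64.7). Spry4 had 5 gained and 3 kept, Dusp6 3 gained and 1 kept, Etv5 1 gained and 4 kept, and Spry2 1 gained and 3 kept. The 10 immediate early genes, the first to respond to serum, had 14 gained and 6 kept regions, a gained share of 70.0% (45.7 to 88.1), and 3 gained and 2 kept at equal list length. Klf6 had 5 gained, Atf3 4 and Myc 3, while Egr1, Fosb, Junb and Srf had none of any class. The 8 genes of NODAL signalling and the primed state had 2 gained and 6 kept regions (25.0%, 3.19 to 65.1). Of the trophectoderm genes, Elf5 had 6 gained and Tfap2c 4 kept regions, in a list with 10 gained and 4 kept, to which Gata2 and Krt8 added 2 gained each. Of the genes of other lineages, only Pax5 and Pax6 had any gained region, 1 each.

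Changes in strength were examined at the 5671 kept regions that had a peak in all 4 lists, on the log2 fold of the strongest peak, centred on the median of each list. Before centring the median folds were 6.83 and 8.33 at 0 h, against 11.8 and 8.10 at 2 h, so the replicates of 2 h differed by more than those of 0 h. By limma with Benjamini-Hochberg adjustment over all regions, 209 rose (3.69% of those tested) and 190 fell (3.35%), together 7.04%, each relative to the median kept region. Without centring, which leaves a median change of 0.34 on the log2 scale, 222 rose and 2 fell. The split between rises and falls thus depended on centring, and a fall means a fall relative to other kept regions. The counts also moved with single libraries: without 0 h replicate 1, 0 h replicate 2 or 2 h replicate 1, 124, 120 and 97 rose and 97, 91 and 86 fell. The smallest change called was 1.02 on the log2 scale. In simulated data, 50 of 200 regions with a true log2 change of 1 were called (25%). With a true change of 2, 199 of 200 were called.

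**Figure D4:**
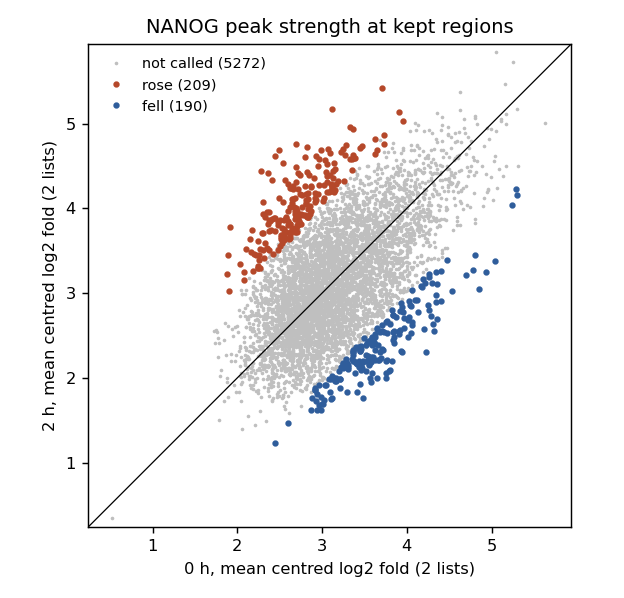
Mean centred log2 NANOG fold of the 2 lists at 0 h (x axis) and at 2 h (y axis) for each of 5671 kept regions, with the line of equality. The 209 regions that rose lie above and the 190 that fell lie below the line, each by at least 1.02 on the log2 scale.

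Every region that rose had a GATA6 peak in both 2 h lists. A rise favours regions that are strong at 2 h, and GATA6 peaks were more frequent at stronger kept regions. In the 5 groups by 2 h fold, the mean GATA6 share of kept regions was 76.5% in the weakest and 99.1% in the strongest group. The part of 2 h strength in the values of this paragraph was not tested. Of the 5038 kept regions with GATA6 in both lists 209 rose (4.15%) and 113 fell (2.24%). Of the 422 with GATA6 in 1 list none rose and 41 fell (9.72%), and of the 211 with GATA6 in neither list none rose and 36 fell (17.1%). The median log2 change was 0.021, -0.41 and -0.54 in these sets, and 51.8%, 19.7% and 6.16% of their regions were higher at 2 h on the centred scale. The median GATA6 fold was 32.9 and 28.4 at the regions that rose and 7.15 and 6.599 at those that fell, where present.

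**Figure D5:**
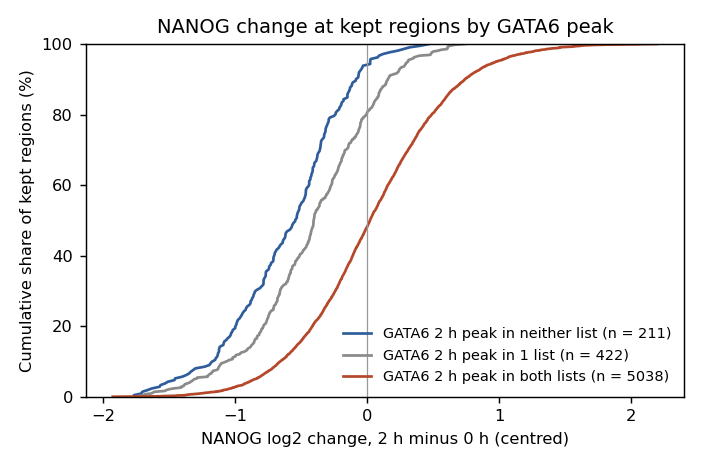
Cumulative share of kept NANOG regions (y axis, percent) by their centred log2 change from 0 h to 2 h (x axis), for regions with a GATA6 2 h peak in both lists, in 1 list and in neither list. The curves are ordered, with medians of 0.021, -0.41 and -0.54.

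Motifs and peaks of other factors differed in frequency between the regions that rose and those that fell. GATA was matched in 140 of 209 regions that rose (67.0%) and 38 of 190 that fell (20.0%), against 38.2% of all tested, and 2 or more GATA matches in 27.8% and 3.16%, against 8.32%. AP-1 was matched in 23.4% and 3.68%, against 11.1%. The SOX core went the other way, with 19.6% of regions that rose and 35.3% of those that fell, against 27.9%, as did the SOX-OCT composite, with 1.44% and 6.32%, against 3.58%. SOX2 0 h peaks in both lists were found at 68.4% of regions that rose and 94.2% of those that fell, against 84.7% of all tested, and SOX2 2 h peaks in both lists at 97.1% and 57.9%, against 79.1%. NANOG was still called in both 4 h lists at 88.0% of regions that rose and 12.1% of those that fell, against 46.7% of all tested. GATA4 24 h peaks in both lists were found at 34 regions that rose (16.3%) and at none of the 190 that fell, against 5.84% of all tested. Regions that rose were selected for high 2 h values, and the part of 2 h strength in these shares was not tested.

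The 5 largest rises had 0 h folds of 4.10 to 6.31. An intergenic region 176430 bp downstream of Abcc12 had folds of 5.06 and 4.85 at 0 h and 38.6 and 22.4 at 2 h, a centred log2 change of 2.20 ± 0.32 (SE; limma adjusted p = 0.000438). A region in an intron of Pde6a had folds of 4.10 and 5.53 at 0 h and 35.4 and 22.0 at 2 h. A region 13867 bp upstream of Mkrn1, with 2 SOX-OCT matches and no GATA match, had folds of 4.17 and 4.39 at 0 h and 23.9 and 25.4 at 2 h. The other two lay near Fars2 and in an intron of Raph1, with log2 changes of 2.07 and 2.06.

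The 5 largest falls were smaller than the 5 largest rises. A region 22102 bp upstream of Spin1 had folds of 17.3 and 15.7 at 0 h and 5.41 and 5.85 at 2 h, a centred log2 change of -1.93 ± 0.34 (SE; limma adjusted p = 0.00154). Its SOX2 folds were 26.8 and 39.2 at 0 h, against 10.9 and 13.9 at 2 h. A region in an intron of Bach2 had NANOG folds of 11.8 and 11.9 at 0 h and 3.89 and 5.28 at 2 h, with no GATA6 or SOX2 peak in any 2 h list. The other three lay near Tmem241 (-1.81), in Fyb (-1.76) and near Cnot10 (-1.73). Without 2 h replicate 1 the changes near Tmem241, Bach2 and Cnot10 were -1.01, -1.27 and -1.28 (limma adjusted p = 0.180, 0.0636 and 0.0589), and without 0 h replicate 2 that near Cnot10 was -1.17 (limma adjusted p = 0.0991), so that these calls were lost. Without centring those of Fyb, Bach2 and Cnot10 were lost (limma adjusted p = 0.0523, 0.0525 and 0.0634).

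Near the genes of the fixed lists few kept regions passed the test. Near study PrE genes 6 of 144 rose (4.17%) and 4 fell (2.78%), and near study Epi genes 8 of 205 rose (3.90%) and 2 fell (0.976%), against 3.69% and 3.35% of all regions tested. Of the short lists, 1 region each rose near Lamc1 and Spry2 and 1 each fell near Tet2 and Spry4. The Lamc1 region, 44129 bp upstream, had folds of 6.65 and 8.06 at 0 h and 32.8 and 17.1 at 2 h (log2 change 1.32 ± 0.32 SE, limma adjusted p = 0.0125). The Spry2 region, 4091 bp from the TSS, had folds of 6.83 and 4.49 at 0 h and 27.2 and 16.8 at 2 h (log2 change 1.58 ± 0.34 SE, limma adjusted p = 0.00567). The Tet2 region, intronic, had folds of 21.3 and 24.4 at 0 h and 13.3 and 8.36 at 2 h (log2 change -1.48 ± 0.32 SE, limma adjusted p = 0.00574). The Spry4 region, 24707 bp upstream, had folds of 8.41 and 14.3 at 0 h and 6.91 and 6.75 at 2 h (log2 change -1.06 ± 0.33 SE, limma adjusted p = 0.0493). Without centring neither fall passed (limma adjusted p = 0.150 for Tet2 and 0.434 for Spry4). The Spry4 call was also lost with the replicate block (limma adjusted p = 0.0808), with quantile normalization (0.0598), with the stricter q-value (0.0571) and without 0 h replicate 1 (0.0546), 0 h replicate 2 (0.295) or 2 h replicate 1 (0.312). The Lamc1 rise was lost without 0 h replicate 2 (limma adjusted p = 0.0512) or 2 h replicate 1 (0.119), and the Spry2 rise without 0 h replicate 2 (0.111). None of the 8 kept regions of the core pluripotency genes passed the test, and their log2 changes ran from -0.44 to 0.65, both at Zfp42. As most changes of 1 went uncalled in simulated data, this does not show that these regions were unchanged.

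Tet2, a DNA demethylase gene of the naive state, held regions of each class. Besides the kept region, which fell relative to other kept regions but not without centring, an intronic region with folds of 4.75 and 6.20 at 0 h was lost, and a gained region 19012 bp upstream of the TSS had folds of 14.8 and 10.1 at 2 h, GATA6 folds of 71.0 and 57.2 and NANOG folds of 15.0 and 12.6 at 4 h. NANOG was no longer called at the kept region at 4 h.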

How the data were processed

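Members and lists were chosen with earlier results of these data known. CUT&RUN reads had been aligned by the authors to mm10 (GRCm38) with Bowtie2, as the study's methods state. They removed blacklisted regions with SAMtools, kept duplicates and called narrow MACS peaks per library against a rabbit anti-rabbit control library. The deposited columns used were the fold enrichment (a ratio) and the −log10 of the p- and q-values. Read totals, which the paper places in its supplementary data, were not used here, and background coverage was recovered from pairs of fold and p-value. Of 30 pairs tried per list, 15 to 18 shared the value given for the NANOG 0 h and 2 h lists. For the GATA6 0 h lists only 3 and 4 did.

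Peaks of both lists of a time point that overlapped by at least 1 bp formed a region. Genes came from the GENCODE annotation of GRCm38 and sequence from the RefSeq copy of GRCm38.p6, and 0 NANOG peaks lay outside its chromosomes. The regions named are the 3 strongest of each class by mean fold (2 h lists for gained and kept, 0 h lists for lost), those that carry the count of a short gene list, and the 5 largest rises and falls. Strength was tested with limma 3.58.1 in R 4.3.3 on log2 folds (no pseudocount, Benjamini-Hochberg adjusted p at most 0.05), checked on simulated data. Since nothing says that replicates were separate cultures, p-values measure the spread between these samples, which may be technical. limma pools this spread over regions, here with 28.3 prior against 2 residual degrees of freedom. The SE of a region is thus mostly a value pooled over all regions. Without centring or with a list left out, the SE was the same for every named region. Regions are not replicates, and intervals (exact binomial, 95%) cover counting error only. Alternatives were equal list length, a −log10 q of at least 5, an overlap of 50%, other distance and window limits, other scalings, a replicate block and leaving out each list. Lists of GATA6 after 2 h and of SOX2 after 2 h were not used here.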

Additional observations from a re-analysis of the deposited data

How the results depend on the processing

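The counts of regions depended most on list length and on single lists. At equal list length 2744 regions were gained, 3502 kept and 1884 lost, and with a −log10 q of at least 5, 3377 were kept and 246 lost. Leaving out each list in turn gave 10511 to 39345 gained, 5904 to 8579 kept and 676 to 4047 lost regions. The median width of the lists differed by 126.5 bp at equal list length instead of -20 bp.

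For gained minus kept regions, in percentage points, the proximal share was 1.099 at equal list length and 2.09 within 5 groups of like 2 h fold, with 3.27 to 7.18 when a list was left out. The share near study PrE genes was 2.00 at equal list length and 0.746 to 1.27 with a list left out. The GATA6 2 h share was 1.48 at equal list length, 0.446 with the stricter q, 5.14 within these groups and -5.81 for the 10000 strongest GATA6 peaks, with -31.5 to -0.792 when a list was left out. The SOX2 0 h share was -68.6, -62.9 and -62.2 at equal list length, with the stricter q and for the 10000 strongest SOX2 peaks, and -71.7 to -53.3 with a list left out. The SOX-OCT share was -3.94 at equal list length, -3.96 with the stricter q, -1.42 within 50 bp and -2.50 within these groups, and -2.99 to -2.47 with a list left out. The division into 5 groups was chosen after seeing the data.

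By limma 124 kept regions rose and 103 fell at equal list length, 94 and 69 with the stricter q, and 97 to 148 and 86 to 186 with a list left out. Fewer regions or lists entered these fits. Without centring 2 fell. With the replicate number as a block 106 rose and 81 fell, all 187 among the 399 called without it. Same-numbered lists deviated with a correlation of -0.062 over 2 pairs, so the numbers were not taken to pair the samples. Of the 10 regions named for their change none reversed, and 3 lost their call without centring, 3 without 2 h replicate 1 and 1 without 0 h replicate 2. Only 3 of these 10 regions entered the fit at equal list length and 3 that with the stricter q, all with the same call. The cause of the differences between settings was not tested. A peak absent from a list means that none passed the threshold at that depth, not that NANOG was absent.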
